A study of Mus musculus with 2 samples.

Results

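Horizontal cells are the laterally connected interneurons of the outer retina. They were followed here through 7 genes, Ptf1a, Onecut1, Onecut2, Prox1, Lhx1, Calb1 and Gja10. The genes were taken from a fixed list of names, and their probes were found by matching the RefSeq accession on the array to a gene symbol. Each gene had 1 probe and each probe 1 spot, so 7 of the 55669 probes and 7 of the 20659 named genes are described. Calb1 and Gja10 lie on chromosome 4, and Prox1, Ptf1a, Onecut1, Lhx1 and Onecut2 on chromosomes 1, 2, 9, 11 and 18. Expression was read on 2 Agilent arrays with a single dye. One held RNA of retina labelled Mef2d KO at postnatal day 14 and the other RNA of wild-type (WT) retina of the same age. The labels in hand do not state the strain, the sex or the number of animals, the design of the Mef2d allele, or what either group carries beyond its genotype. Each group is a single array, so the differences below could not be checked against replicates and carry no p-values.

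Horizontal cells receive glutamate from rods and cones and return an inhibitory signal to the photoreceptor terminals and bipolar cells. In the embryonic retina Foxn4 and Ptf1a commit progenitors to the horizontal and amacrine fates, and the Onecut factors and Prox1 then steer cells to the horizontal fate. Lhx1 acts after that, in the migration of the young cells to their final layer. Mature horizontal cells of the mouse are recognised by calbindin, the product of Calb1, and they are coupled to one another by gap junctions of connexin Cx57, the product of Gja10. Horizontal cells are a small fraction of retinal cells, and several of these genes are also used elsewhere: Calb1 in amacrine cells, Prox1 in amacrine, bipolar and Mueller cells and in the lens, and the Onecut genes in ganglion cells.

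The upstream sequences of the members were examined because MEF2D is a DNA-binding factor and several members are themselves DNA-binding regulators. RefSeq windows on build GRCm38.p6 were matched for 5 of the 7 members, Lhx1, Onecut1, Prox1, Ptf1a and Gja10, and not for Onecut2 and Calb1. Prox1 has separate starts, which gave 6 windows in all. Of each window the 250 bases before the annotated start were searched on both strands, and matches are in capitals. The Prox1 window at chr1:190170828-190171077 (minus strand) is shown for its TATA box, Ptf1a at chr2:19445413-19445662 (plus strand) and Lhx1 at chr11:84525535-84525784 (minus strand) because each has 1 CCAAT box although their differences between the arrays had opposite signs.
Prox1: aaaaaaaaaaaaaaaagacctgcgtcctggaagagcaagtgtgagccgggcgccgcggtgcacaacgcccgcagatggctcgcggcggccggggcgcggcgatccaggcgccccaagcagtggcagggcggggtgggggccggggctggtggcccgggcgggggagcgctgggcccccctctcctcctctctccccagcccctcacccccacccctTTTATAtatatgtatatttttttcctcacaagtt
Ptf1a: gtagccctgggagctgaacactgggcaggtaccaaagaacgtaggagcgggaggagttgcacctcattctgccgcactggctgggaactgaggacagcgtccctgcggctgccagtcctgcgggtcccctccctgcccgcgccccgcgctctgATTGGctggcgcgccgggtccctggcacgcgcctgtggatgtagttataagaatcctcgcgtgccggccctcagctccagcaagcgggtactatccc
Lhx1: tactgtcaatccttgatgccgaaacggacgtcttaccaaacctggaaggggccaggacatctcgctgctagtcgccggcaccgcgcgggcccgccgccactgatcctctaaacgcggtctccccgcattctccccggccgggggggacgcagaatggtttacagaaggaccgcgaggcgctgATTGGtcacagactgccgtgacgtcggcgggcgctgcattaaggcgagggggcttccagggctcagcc

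No member window held the MEF2 consensus, a 10-letter motif with both A and T allowed at its centre. Of all 32851 windows of this length 0.508% held it. The Onecut core ATTGAT and the E-boxes CAGCTG and CACCTG were also not found in the member windows, against 6.72%, 13% and 17.2% of all windows. The TATA box TATAAA lay on the opposite strand, 29 to 34 bases before the Prox1 start. Another lay, on the strand opposite to the gene, 65 to 70 bases before the Gja10 start, and 12.4% of all windows had one. The CCAAT box, also on the opposite strand, lay 93 to 97 bases before the Ptf1a start and 64 to 68 bases before the Lhx1 start. It was present in 33.8% of all windows. These matches describe letters in a window and are not binding sites. The windows of Onecut1 and Ptf1a were GC-rich, at 71.6% and 66% against a median of 52.4%. Those of Lhx1 and Prox1 shown above had 64.8% each, and the other Prox1 window 56%. The Gja10 window had 41.2%, but the Gja10 model begins at its start codon, so that window may not be a promoter and is not shown.

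Signals below are processed signals of the scanner software, with background removed and in its own brightness units. Levels are log2 of the signal minus the log2 of the 75th percentile of the same array, which was 858 on the array labelled Mef2d KO and 807 on the WT array. A difference is the level on the array labelled Mef2d KO minus the level on the WT array. The ± beside a value is the error that the scanner software models for a spot, or for the difference of spots, without any variation between animals or dissections. A difference called within or beyond the error is smaller or larger than its ±. Probes bind with different strength, so no probe's level is set against that of another probe. The amount of RNA from horizontal cells also depends on how many of them were in the tissue, and fewer cells and less RNA per cell cannot be told apart.

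The arrays themselves differed in ways that bear on every member. Of 59305 probe spots, 69.6% passed the scanner's flag for well above background on the array labelled Mef2d KO and 75.5% on the WT array. Mef2d was not lower on the array that bears its name, with differences of 0.43 ± 0.20 and 0.14 ± 0.21 for its probes. Their place relative to the deleted part of Mef2d is unknown here, so they do not check the label. The Xist probes were not well above background in WT, and the array labelled Mef2d KO exceeded it at them by at least 51.7-fold and at least 26.4-fold. Genotype and the sex make-up of the samples therefore cannot be told apart. Of 19 lens markers read on both arrays, 15 were lower by 2-fold or more on the array labelled Mef2d KO and 1 was higher by that much, with a median difference of -1.83.

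No member read on both arrays was 2-fold apart. Of the 6 such members, 0 were lower and 0 higher by 2-fold or more. Of all 16172 genes read on both arrays 1.73% were that much lower and 0.618% that much higher, 2.35% in all. That split, 280 lower and 100 higher, became 170 and 151 with median scaling and 103 and 61 with normexp background. Gja10, Calb1, Onecut1 and Prox1 had negative differences and Lhx1 and Onecut2 positive ones. Negative differences were also found for 51.2% of all genes. With median scaling 3 of the 6 members and 22.5% of all genes were negative. The seventh member, Ptf1a, was well above background in WT only and has a bound.

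**Figure D1:**
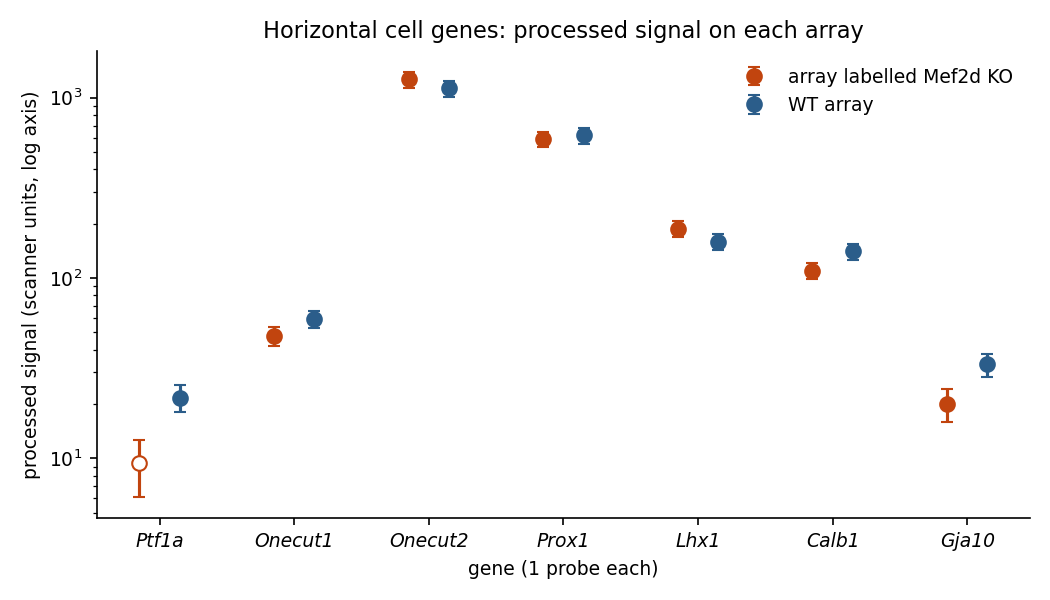
Processed signal (log axis, scanner units) of the single probe of each gene on the array labelled Mef2d KO (left point of each pair) and on the WT array (right point); bars are the scanner software's error for 1 spot and the open point was not well above background. The bars overlap for Onecut1, Onecut2, Prox1 and Lhx1 and do not for Ptf1a, Calb1 and Gja10, and heights of different genes are not comparable.

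Ptf1a encodes a basic helix-loop-helix factor, needed for the horizontal and amacrine fates and little used once these cells have formed. Its signal was 9.36 ± 3.23 on the array labelled Mef2d KO, where it was not well above background, and 21.7 ± 3.74 on the WT array. The unprocessed spot stood at 55 against a local background of 34 on the array labelled Mef2d KO, and at 68.5 against 38 on the WT array. By its bound, Ptf1a on the array labelled Mef2d KO was lower by at least 1.57-fold. The bound sets the WT level of -5.22 against the lowest level that was well above background on the other array, -5.87. Some genes that were not well above background there lay above that level, so the bound is not a strict limit. Of 922 genes read in WT only, 19.6% were at least 2-fold lower by the same kind of bound, and Ptf1a was not among them. With quantile normalization the log2 bound shrank to -0.049, and with normexp background the measured difference was -0.26 in place of -1.30.

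Onecut1 and Onecut2 encode paired cut-domain and homeodomain proteins that act together in horizontal cell genesis and maintenance. Onecut1 had a signal of 47.8 ± 5.73 on the array labelled Mef2d KO and 59.2 ± 6.75 on the WT array. Its difference was -0.40 ± 0.24, beyond the scanner error, and it was -0.14 with quantile normalization and -0.077 with cyclic loess. Probes printed in several spots had a median SD of the difference of 0.38 at or below a level of -3, where Onecut1 stood. The 1247 genes within 0.5 log2 units of the Onecut1 level had a median difference of -0.18. Of them, 27.8% lay at or below the Onecut1 difference. Onecut2 gave 1262 ± 126 on the array labelled Mef2d KO and 1124 ± 112 on the WT array. This difference of 0.079 ± 0.20 was within the error, with a positive sign under each of the 7 alternatives run. The paralogs therefore had opposite signs in these arrays, and whether they differ from each other was not tested. Onecut3, the remaining family member, differed by 0.046 ± 0.21.

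Prox1, a homeodomain factor that drives progenitors out of division and towards the horizontal fate, had 588 ± 58.9 on the array labelled Mef2d KO and 618 ± 61.9 on the WT array. Its difference of -0.16 ± 0.20 lay within the scanner error and changed sign to 0.019 with median scaling. Prox1 is also strongly used by lens fibre cells, whose markers were the lowest of the lists described here. The summed signal of the 19 lens markers, in multiples of each array's 75th percentile, was 49.6 on the array labelled Mef2d KO and 210 on the WT array. The part of lens RNA in the Prox1 signal was not tested. Prox2, a paralog, was not well above background on either array.

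Lhx1, the LIM homeodomain factor that places horizontal cells in their layer, was the member with the most positive difference, except with normexp background, where Onecut2 was above it. Its signal was 187 ± 19.0 on the array labelled Mef2d KO and 159 ± 16.2 on the WT array. The difference of 0.15 ± 0.21 was within the error, and it ranged from 0.12 to 0.33 over the 7 alternatives. Lhx1 kept the sign opposite to that of Calb1 and Gja10, the markers of mature cells, under each alternative. Regulators did not share the Lhx1 sign as a group. Onecut1 (-0.40) and Prox1 (-0.16, and 0.019 with median scaling) were negative like Calb1 and Gja10.

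Calb1 encodes calbindin, a calcium buffer that fills the horizontal cell body and processes. Its signal was 109 ± 11.4 on the array labelled Mef2d KO and 141 ± 14.4 on the WT array. The difference was -0.45 ± 0.21, or 1.37-fold lower, and lay beyond the scanner error. It ranged from -0.47 to -0.27 over the 7 alternatives. Calb1 had a mean level of -2.75. The 1320 genes within 0.5 log2 units of that level had a median difference of -0.085, and 10.1% of them lay at or below the Calb1 difference. Amacrine cells also make calbindin. Calb2, the calretinin gene of amacrine and ganglion cells, differed by -0.024 ± 0.20.

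Gja10 encodes connexin Cx57, the gap junction protein that couples horizontal cells. Its signal was 20.1 ± 4.17 on the array labelled Mef2d KO and 33.1 ± 4.91 on the WT array, close to the lowest signals that counted as well above background. The difference was -0.81 ± 0.37, or 1.75-fold lower. It was the most negative of the 6 members read on both arrays, except with quantile normalization and normexp background, where Calb1 was more negative. Quantile normalization brought it to -0.33, cyclic loess to -0.38 and normexp background to -0.29. Dim genes as a whole leaned the same way. The 1088 genes within 0.5 log2 units of the Gja10 level had a median difference of -0.34, with 8.55% of them lower by 2-fold or more and 17.5% at or below the Gja10 difference. The Gja10 difference thus stood -0.47 from that median.

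**Figure D2:**
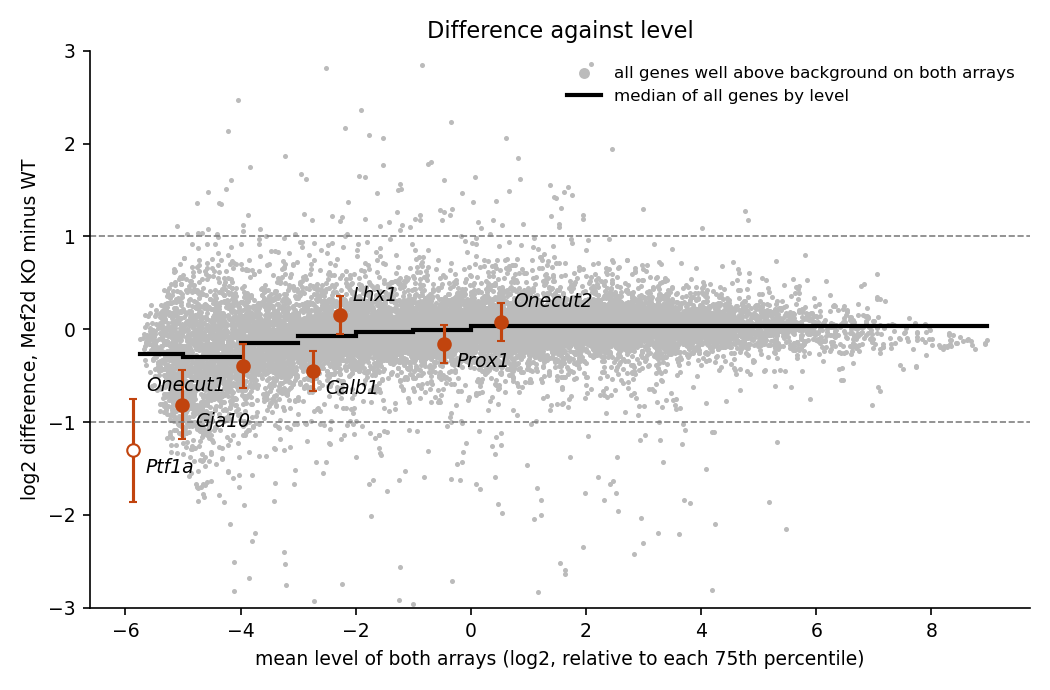
Log2 difference (array labelled Mef2d KO minus WT) against the mean level of both arrays (log2, relative to each 75th percentile) for genes well above background on both arrays (grey), with the members in colour, scanner errors as bars, Ptf1a open, and black lines for the median of all genes in each level range. Genes at the dim end lie below 0, with a median of -0.30 between levels -5 and -4; 13 genes below -3 and 4 above 3 are off the axis.

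At or below a mean level of -3, where Onecut1, Gja10 and Ptf1a stood, 5.34% of genes were lower by 2-fold or more and 0.753% higher by as much. Above it, with the other 4 members, the shares were 0.892% and 0.587%. Probes printed in several spots gave a median SD of the difference of 0.38 at or below that level and 0.061 above it. Onecut1 differed from the median of the genes at its own level by -0.21, Calb1 by -0.36, Prox1 by -0.16, Onecut2 by 0.052 and Lhx1 by 0.21. The measured value of Ptf1a, which is not well above background on the array labelled Mef2d KO, stood -1.15 from the median of 106 genes near its level, none of which lay as low. Those genes had to be well above background on both arrays and Ptf1a was not.

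**Figure D3:**
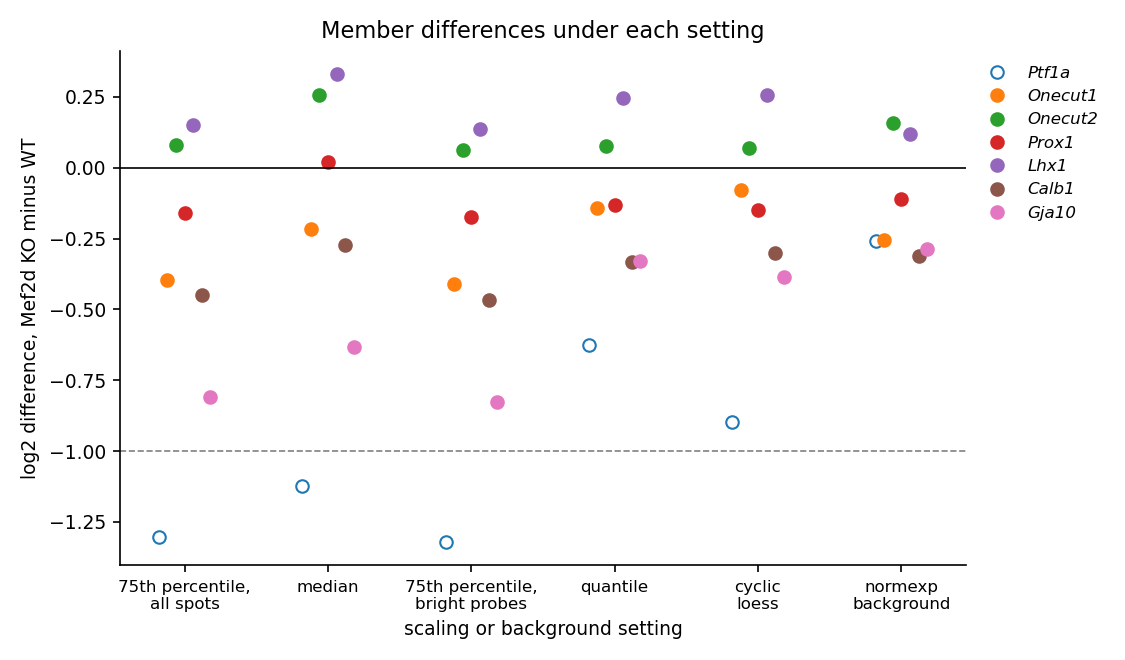
Log2 difference (array labelled Mef2d KO minus WT) of each member under 6 settings of scaling or background. Ptf1a (open) and Gja10 move most, Calb1 stays between -0.47 and -0.27, Lhx1 and Onecut2 stay above 0, and Prox1 crosses 0 with median scaling.

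Other genes listed as horizontal cell markers stayed close to 0 by their brightest probes. Several are shared with other cell types. Tfap2a, Tfap2b and Slc32a1 are also on the amacrine list, and Nefl, Nefm and Nefh on the ganglion cell list. The part of horizontal cells in these signals was not tested. Of 16 further markers read on both arrays, 0 passed 2-fold and 10 had a negative difference (1 with median scaling). Their differences ran between -0.23 and 0.17, around a median of -0.063 (0.12 with median scaling), beside a median of -0.006 (0.17 with median scaling) over all genes. Those furthest from 0 were Adra2a, an adrenergic receptor gene (-0.23 ± 0.20), Nefl, a neurofilament shared with ganglion cells (0.17 ± 0.20), the bicarbonate exchanger gene Slc4a3 (-0.17 ± 0.20, and 0.013 with median scaling) and Sall3, a zinc finger factor of horizontal cells and cones (0.16 ± 0.22). Tfap2a and Tfap2b, AP-2 factors of horizontal and amacrine cells that act downstream of Ptf1a, differed by -0.14 (0.041 with median scaling) and 0.026. Dimmer probes gave -0.45 for Tfap2a and 0.45 for Tpm3, outside the range of the brightest probes.

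Regulators of horizontal cell genesis were read at an age when this process is long past. Of 18 listed genes 17 were read on both arrays, 0 passed 2-fold and 12 had a negative difference (8 with median scaling). The median was -0.11, or 0.063 with median scaling. Foxn4, which acts upstream of Ptf1a, had a signal of 28.3 on the array labelled Mef2d KO and 21.1 on the WT array. Its difference of 0.33 ± 0.34 was within the error. Quantile normalization gave 0.85 and cyclic loess 0.76, beyond that error, and normexp background 0.013. Notch1 (-0.29), its target Hes1 (-0.28) and Meis2 (0.28), a homeodomain factor, were the others furthest from 0. Another Notch1 probe gave -0.99.

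The genes of synaptic input and feedback gave the same picture of small differences. Of 15 genes 0 passed 2-fold, and the median was -0.023 (0.16 with median scaling). Ntng2, a netrin-G protein that binds synaptic adhesion partners, differed by 0.30 ± 0.21 and Gria3, an AMPA receptor subunit, by -0.24 ± 0.20. Gad1, which makes GABA, differed by -0.22 (-0.040 with median scaling) and Grik1, a kainate receptor subunit, by 0.21.

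Among the LIM homeodomain genes and their cofactors, relatives of Lhx1, 11 of 14 were read on both arrays and 0 passed 2-fold. Their median was -0.016, or 0.16 with median scaling. Isl2, used by ganglion cells, differed by 0.45 ± 0.20, Lmx1b by -0.41 ± 0.21, Lhx4 by -0.24, Lhx9 by -0.18 (-0.0062 with median scaling) and Lhx2 by 0.050. The calcium-binding relatives of Calb1 had 7 of 8 genes read on both arrays and 0 past 2-fold, with a median of -0.11 (0.067 with median scaling). Ocm, the oncomodulin gene, was the lowest of them at -0.43 ± 0.23 by its brighter probe, the other being not well above background on either array, followed by the photoreceptor gene Rcvrn at -0.38. Hpca differed by -0.12 and Scgn by -0.11, and both turned positive with median scaling, to 0.060 and 0.067.

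The connexins and pannexins, the family of Gja10, included 3 large decreases. Of 22 genes 13 were read on both arrays, of which 3 were lower and 0 higher by 2-fold or more, with a median of -0.13 (0.046 with median scaling). Gja3, a connexin of lens fibres, differed by -1.53 ± 0.28 and belongs to the lens list as well. Gjd3 differed by -1.04 ± 0.33, and by -0.86, -0.63, -0.61 and -0.35 in turn under median scaling, quantile normalization, cyclic loess and normexp background. Gja5, a vascular connexin, differed by -0.73 ± 0.28. The neuronal connexins were nearer 0, with -0.29 ± 0.20 for Gjd2 and -0.096 (0.082 with median scaling) for Gjc1.

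**Figure D4:**
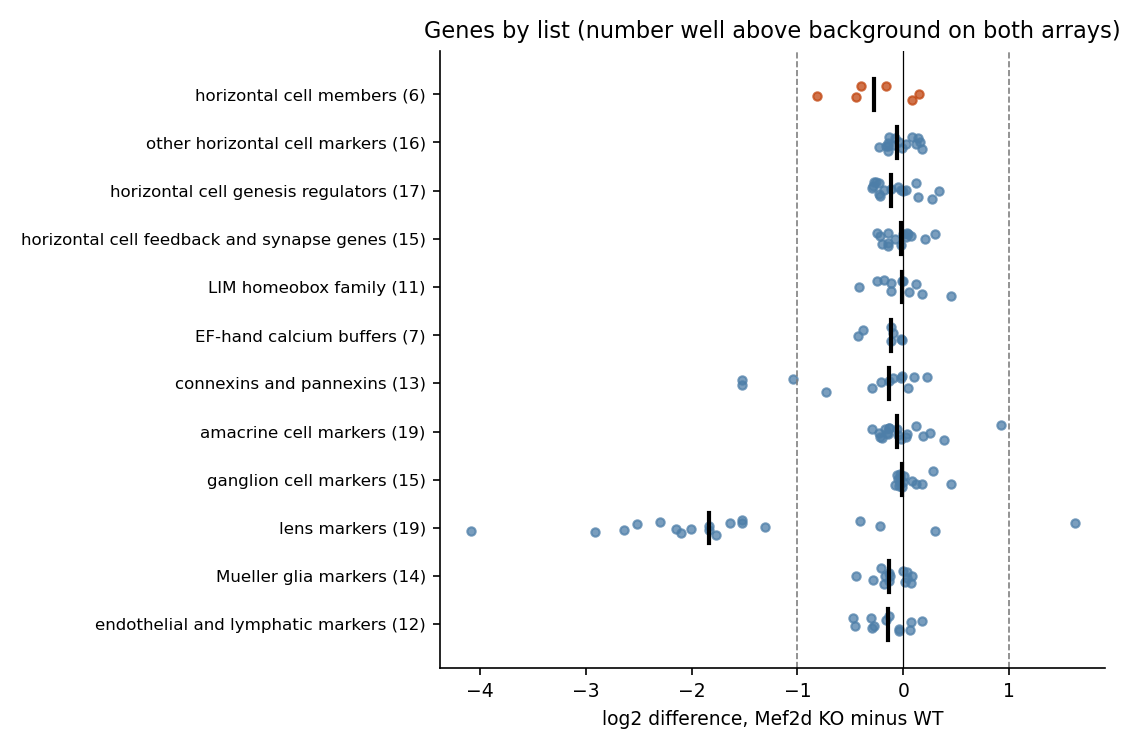
Log2 difference (array labelled Mef2d KO minus WT) of each gene well above background on both arrays, by list, with the number of genes in brackets, the list's median as a black bar and dashed lines at 2-fold. The lens markers stand apart with a median of -1.83, and outside the lens and connexin lists no gene shown passes 2-fold.

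Cell types that share markers with horizontal cells were read as well, and their summed signals are in multiples of each array's 75th percentile. The 19 amacrine markers summed to 184 on the array labelled Mef2d KO and 188 on the WT array, with 0 past 2-fold and a median of -0.062 (0.12 with median scaling). Neurod6, a factor of an amacrine subset, was furthest from 0 at 0.92 ± 0.33, followed by Chat (0.38), Gjd2 and Tfap2c (0.25). Neurod6 passed 2-fold with median scaling (1.10), quantile normalization (1.39) and cyclic loess (1.35), but was at 0.14 with normexp background. The 15 ganglion cell markers summed to 190 on the array labelled Mef2d KO and 182 on the WT array, with 0 past 2-fold and a median of -0.011 (0.17 with median scaling). Besides Isl2 and Nefl, Slc17a6 (0.28) and Nefm (0.12) were furthest from 0. The 14 Mueller glia markers summed to 333 on the array labelled Mef2d KO and 351 on the WT array. They had 0 past 2-fold and a median of -0.13 (0.048 with median scaling), led by Car2 (-0.44), Hes1, Kcnj10 (-0.21) and Slc1a3 (-0.18, and 0.00033 with median scaling). The 12 endothelial and lymphatic markers, a further setting of Prox1, summed to 32.5 on the array labelled Mef2d KO and 33.3 on the WT array. They had 0 past 2-fold and a median of -0.15 (0.030 with median scaling). Sox17 (-0.48), Sox18 (-0.46), Cdh5 (-0.31) and Pecam1 (-0.29) were furthest from 0. Another Sox17 probe gave -0.12. The 3 other lens genes furthest from 0 beside Mip (-4.09) were Crygn (-2.91), Crybb2 (-2.64) and Cryba2 (-2.51). All listed amacrine, ganglion cell, Mueller glia, and endothelial and lymphatic markers were read on both arrays. The part of these cell types in the member signals was not tested.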

How the data were processed

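Retinal RNA was labelled with Cy3 and hybridised to 1 Agilent array per group, per the labels' protocols. The deposited intensity values were made by Agilent Feature Extraction 10.10.1.1, which removed background and detrended each spot, per the file headers. The deposited series table multiplies these intensities by 1 constant per array (1.76 for Mef2d KO and 1.88 for WT), with column medians of 136.6 and 155.1. It is linear and not centred, and the basis of the constants is not stated in the sources used here.

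Levels were log2 processed signals, from which the 75th percentile of the array's probe spots was subtracted. Control spots and outlier spots (126 on the array labelled Mef2d KO and 106 in WT) were left out, and spots of 1 probe were averaged. A probe counted as well above background when the scanner flag was set on all its spots. RefSeq accessions without version were matched to GRCm38.p6 symbols, which named 48.9% of the probes. The array design names build mm9, so coordinates are given for RefSeq windows alone. Of several probes for a gene, the one of highest mean level stood for it. Counts were taken over the 16172 genes that were well above background on both arrays.

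Named genes were all members, Mef2d, up to 4 genes of each of 12 lists with the largest differences, and a few paralogs. One gene that this rule names is not reported here. Members and lists were chosen with earlier results of these data known. No gene was named for a pattern like that of a member, because 2 arrays leave 1 difference per gene. Precision is limited by the number of arrays. Counting was tested on simulated data made from the WT values. Changes were placed only in genes with WT signals above those of Ptf1a, Gja10, Onecut1, Calb1 and Lhx1. Both simulated arrays had the same background flags. The test therefore does not cover changes in dim genes or genes read on 1 array only. Alternatives were other scalings, quantile normalization, cyclic loess, normexp background (offset 50, on median spot signals), the series table and other filters. R 4.3.3, limma 3.58.1, Python 3.11.15, numpy 2.4.6, pandas 2.3.3 and matplotlib 3.10.9 were used.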

Additional observations from a re-analysis of the deposited data

How the results depend on the processing

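No alternative changed the sign of Ptf1a, the only member whose measured difference was past 2-fold. Among the other members, Prox1 changed sign, to 0.019 with median scaling. Lhx1, Onecut2, Prox1 and Calb1 moved by less than the scanner error under each of the 7 alternatives run on them. Only quantile normalization, cyclic loess and normexp background could have moved them by more than that error. Median scaling and the percentile over probes well above background each shift all genes by a constant smaller than the scanner error. The series table multiplies each array by a constant that the scaling removes. Keeping outlier spots left the values of these genes unchanged. With quantile normalization the differences moved to -0.14 for Onecut1, -0.63 for Ptf1a and -0.33 for Gja10, and the log2 bound of Ptf1a to -0.049 from -0.65. Cyclic loess gave -0.077 for Onecut1 and -0.38 for Gja10. Normexp background gave -0.26 for Ptf1a and -0.29 for Gja10. The cause of these moves was not tested. Among all genes, 280 were lower and 100 higher by 2-fold or more on the array labelled Mef2d KO. Median scaling gave 170 and 151, quantile normalization 164 and 156, cyclic loess 161 and 157, and normexp background 103 and 61. Taking all genes with a probe gave 1738 and 225, and taking genes above a mean level of -3 left 117 lower. Under median scaling the median of all genes was 0.17. The 13 list medians moved by less than the median scanner error of their genes, which was bound to hold for the scalings and the series table. That error was larger than every list median except those of the members and the lens markers, so signs could still change. Most list medians turned positive with median scaling, which shifts all genes by a constant smaller than that error. Signal near background limits Ptf1a and Gja10. No paired analysis was possible because each group has 1 array.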
